A study of Mus musculus with 88 samples.

Results

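Ces1d, the gene with the largest fall in hearts of 43-day-old dKO mice on chow, and 7 genes known from fat cells were followed through 88 mouse hearts. The 8 members were fixed as a list, and a probe set, the group of probes on an Affymetrix array that stands for a transcript, counted where the platform annotation gave it 1 member's symbol alone. Of the 8 genes, 7 had such probe sets, 9 in all, out of 12488 probe sets and 8252 annotated genes. Cfd, which encodes the fat-cell protease adipsin, had no probe set in the annotation used here. Retn and both probe sets of Ucp1 were too dim for the filter on low signals, so 5 members were among the 5672 genes tested. Ces1d was chosen by its measured fall at 43 days, so the comparison of dKO with HET hearts on chow at that age, and that of probucol with chow in the same dKO hearts, are given as values without a test.

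The mice labelled dKO were SR-BI-/- apoE-/-, without the high-density lipoprotein receptor SR-BI and without apolipoprotein E, and the HET controls were SR-BI+/- apoE-/-. All mice, controls included, thus lacked apolipoprotein E. On chow, 10, 10 and 12 dKO hearts and 9, 10 and 9 HET hearts were taken on day 21, day 31 and day 43. Of mice fed probucol, an antioxidant drug that lowers lipids, 6, 8 and 6 dKO and 3, 3 and 2 HET hearts were taken on these days. The labels used here give no dose. Each array held the RNA of the whole heart of 1 mouse, and according to the study's design text the dKO mice had no sign of coronary disease at 21 days, small infarcts at 31 days and extensive infarcts with heart failure at 43 days. In whole-heart RNA, fewer cells of a type and less RNA per cell cannot be told apart.

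Ces1d encodes a carboxylesterase, also called triacylglycerol hydrolase, which splits stored triglyceride and is best known from liver and fat cells. White fat cells secrete the hormones adiponectin (Adipoq) and, in mice, resistin (Retn), carry fatty acids on the binding protein Fabp4, and release them from lipid droplets with hormone-sensitive lipase (Lipe). Brown fat cells burn fatty acids through the uncoupling protein Ucp1, and Cidea is a lipid-droplet protein known from them. A heart sample can hold fat attached to its surface, and Fabp4 is also made by endothelial cells and macrophages, and Lipe by muscle.

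Signals were linear intensities, raised to a floor of 4.22 (2.08 on the log2 scale) and converted to log2. Array medians lay between 27.8 and 75.4 signal units, so a result is also given after every array was centred on its own median where that changed it. Along a component of the residuals the arrays formed sets of 68 and 20, and 6 arrays were highest on another component. To the 20 arrays the dKO chow groups contributed 6, 0 and 0 at 21, 31 and 43 days. The HET chow groups contributed 2, 6 and 3, and the rest were from probucol groups. Comparisons of chow groups by genotype or age were thus not balanced for array set. Marker genes of heart muscle cells were bright on all arrays, and the 10 measured ones summed to 44000 to 66200 signal units per heart. Macrophage markers, of which 15 of 18 measured passed the filter, summed to 13300 to 27100 units in dKO chow hearts at 43 days and to 2650 to 5790 in HET chow hearts of that age.

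Ces1d was measured by 2 probe sets that both passed the filter. The brighter one had a mean log2 signal of 6.53 over all hearts, and the other a mean of 5.94. By Affymetrix naming the suffix of the brighter one marks probes shared by members of a gene family, so signal from other Ces1 genes cannot be told apart from it. Across the 88 hearts, after the group means were taken out, the probe sets varied together (r = 0.60, Spearman's rho = 0.68, permutation p = 1e-05, the smallest that the permutations can give, and r = 0.58 without the 2 hearts farthest from the median). The other carboxylesterase genes with a probe set, Ces1c, Ces1g, Ces2g and Ces3a, were all too dim for the filter, with mean log2 signals of 2.42 to 4.18.

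In HET hearts on chow the log2 signal of Ces1d ranged from 6.45 to 7.52, with a median of 7.06, at 21 days. At 31 days it ranged from 6.30 to 7.69, with a median of 7.16, and at 43 days from 7.10 to 8.52, with a median of 7.63. The lowest, median and highest dKO hearts on chow were at 5.49, 6.47 and 6.89 at 21 days, and at 4.84, 6.16 and 6.70 at 31 days. At 43 days they were at 2.08, 4.22 and 6.69. Every dKO heart on chow at 43 days was thus below every HET heart on chow of that age, while at 21 and 31 days the groups overlapped.

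The dKO hearts on chow at 43 days were not alike in Ces1d. In 6 of the 12 the brighter probe set read 2.08 to 3.42, 1 of them at the floor, and in the other 6 it read 5.03 to 6.69, with no heart in a gap of 1.61 log2 units between them. The other probe set read 2.16 to 3.96 in 11 of these hearts and 5.90 in the heart that was also the highest on the brighter one. The mean difference from HET hearts was -3.39 ± 0.33 (SE, n = 12 and 9) on the brighter probe set, and 9.47% of all genes had no overlap between these groups.

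With probucol, dKO hearts read 5.86 to 7.08 at 21 days (median 6.61), 6.24 to 7.39 at 31 days (median 7.09) and 7.43 to 7.98 at 43 days (median 7.71). The probucol-treated HET hearts read 5.92, 6.47 and 6.57 at 21 days, 6.61, 7.21 and 7.35 at 31 days, and 7.31 and 7.46 at 43 days. No dKO heart on probucol at 43 days came as low as the highest dKO heart on chow of that age, with a mean difference of 3.45 ± 0.37 (SE, n = 6 and 12), and 15.2% of genes had no overlap there. In the order of the 12 group means, dKO chow hearts at 43 days were lowest (4.25 ± 1.77, SD, n = 12) and dKO probucol hearts at 43 days highest (7.69 ± 0.21, SD, n = 6). The hearts of all neighbours in that order overlapped, and a step larger than the SD of both groups was seen once, between dKO probucol hearts at 21 days (6.55 ± 0.42, SD, n = 6) and at 31 days (7.02 ± 0.35, SD, n = 8).

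**Figure D1:**
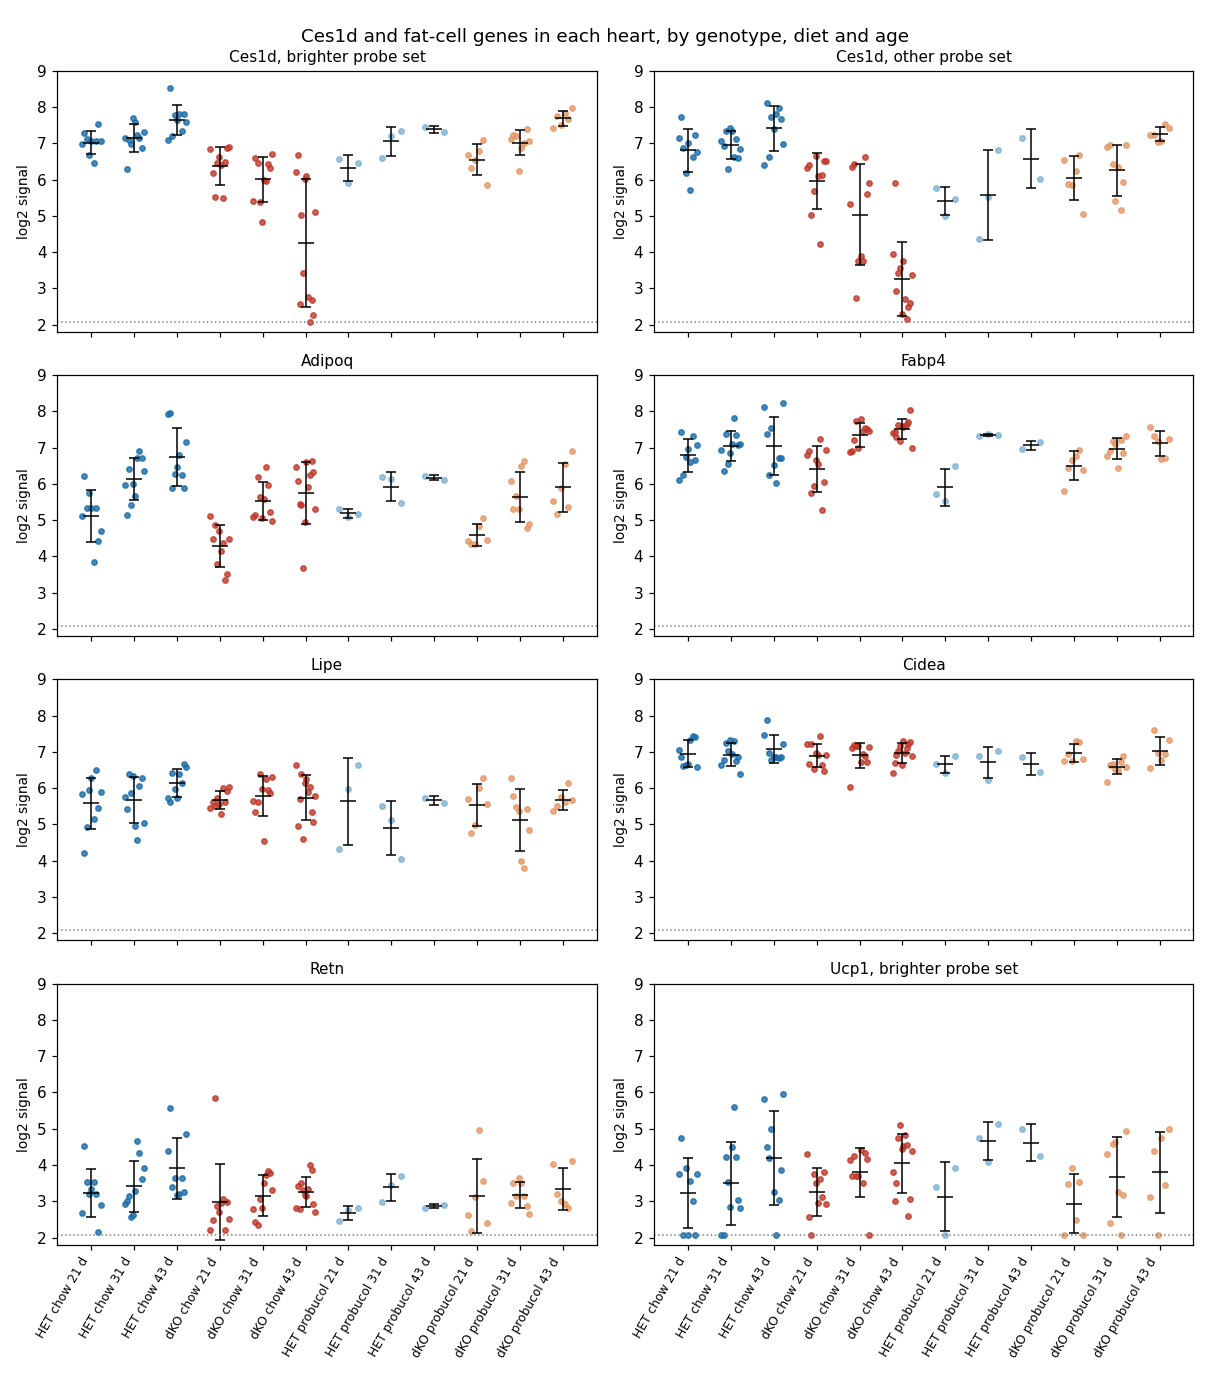
Log2 signal of each measured member in every heart (points), with the group mean and SD (black), for the 12 groups of genotype, diet and age in days (d); the dotted line is the floor at 2.08. The mean of Ces1d in dKO chow hearts (red) is 6.38, 6.01 and 4.25 at the 3 ages, while that of Adipoq is 4.28, 5.53 and 5.76.

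The tested comparisons were between groups whose hearts had not served to choose Ces1d. Their standard errors came from the spread within all 12 groups, the chow hearts of 43 days that served to choose it included. On chow at 31 days, dKO hearts had less Ces1d than HET hearts, 6.01 ± 0.62 against 7.14 ± 0.39 (SD, n = 10 each), a difference of -1.12 ± 0.33 (SE, adjusted p = 0.0088), and 5 of 10 dKO hearts were below the lowest HET heart. Of all genes 23.9% passed the threshold of 0.05 there, 3.88% of all genes being lower in dKO hearts, or 23.0% after median centring. At 21 days the difference was -0.65 ± 0.34 (SE, n = 10 and 9, adjusted p = 0.354, 2.08% of genes called), and 4 of 10 dKO hearts were below the lowest HET heart. It passed in none of 15 alternatives, that with only the groups compared included (adjusted p = 0.10 to 0.533). The change of the difference from 21 to 31 days did not pass its own test (-0.48 ± 0.48, SE, adjusted p = 0.527, 14.5% of genes called). Heart muscle markers moved in the same comparison: 4 of 10 were lower and 1 higher in dKO hearts at 31 days, or 9 of 10 lower after centring, and their summed signal was 46400 to 51500 in dKO and 50100 to 59400 in HET hearts. Macrophage markers were higher in 13 of 15, with sums of 7720 to 15200 in dKO and 3070 to 5390 in HET hearts. The part of either in the difference of Ces1d was not tested.

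Probucol-treated dKO hearts had more Ces1d than dKO hearts on chow at 31 days, by 1.0 ± 0.36 (SE, n = 8 and 10, adjusted p = 0.0247), and 7 of 8 treated hearts were above the highest heart on chow. Of all genes 28.9% passed there, 2.13% of all genes being higher with probucol, or 7.95% after centring. Without the 6 arrays that stood apart the difference was 0.98 ± 0.39 (SE) and no longer passed (adjusted p = 0.0594). At 21 days the difference in dKO hearts was 0.17 ± 0.39 (SE, n = 6 and 10, adjusted p = 0.955, 0.176% of genes called). In HET hearts it was -0.70 ± 0.50 at 21 days (SE, n = 3 and 9, adjusted p = 0.793, 0.388% called) and -0.08 ± 0.49 at 31 days (SE, n = 3 and 10, adjusted p = 0.966, 0.582% called). The difference between these effects of probucol in dKO and in HET hearts at 31 days was 1.08 ± 0.61 (SE, adjusted p = 0.243, 9.29% called) on the brighter probe set and passed the test on the other one (2.61 ± 0.64, SE, adjusted p = 0.00398). On that other probe set the effect of probucol was 1.22 ± 0.37 in dKO hearts (SE, adjusted p = 0.00812) and -1.39 ± 0.52 in HET hearts (SE, n = 3 and 10, adjusted p = 0.204). The 2.61 thus held both higher values in treated dKO hearts and lower values in the 3 treated HET hearts, at 4.36, 5.52 and 6.83. Which part was larger cannot be told at these SEs, and the part from HET hearts did not pass by itself.

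With age, Ces1d changed by -0.36 ± 0.33 from 21 to 31 days in dKO hearts on chow (SE, n = 10 each, adjusted p = 0.333, 63.5% of genes called). Between those ages the median of all genes rose by 0.50 as deposited. After centring the fall of Ces1d passed (-1.02 ± 0.36, SE, adjusted p = 0.025, 31.9% of genes called), as it did after quantile normalization (-0.88 ± 0.33, SE, adjusted p = 0.0458) and on the other probe set (-0.92 ± 0.35, SE, adjusted p = 0.0191). In HET hearts on chow the change was 0.11 ± 0.34 (SE, n = 10 and 9, adjusted p = 0.857, 16.7% called). In dKO hearts on probucol all 6 hearts at 43 days were above all 6 at 21 days, by 1.15 ± 0.43 (SE, adjusted p = 0.0798, 7.55% of genes called, and 6.24% of genes without overlap). With only the groups compared in the fit, the SE was 0.18 and the difference passed (adjusted p = 0.00166, 769 genes called). The median of all genes rose by 0.26 there as deposited, and after centring the difference of Ces1d was 0.83 ± 0.47 (SE, adjusted p = 0.377). Between genotypes on probucol the differences were 0.23 ± 0.53, -0.04 ± 0.51 and 0.31 ± 0.61 at 21, 31 and 43 days (SE), with adjusted p of 0.991 to 1.0 and 0, 0 and 0.0176% of genes called.

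Adipoq, the adiponectin gene, was measured by 1 probe set and was above the floor on every array. In HET hearts on chow it read 3.84 to 6.21 at 21 days (median 5.33), 5.15 to 6.90 at 31 days (median 6.18) and 5.88 to 7.96 at 43 days (median 6.46). In dKO hearts on chow it read 3.35 to 5.12 at 21 days (median 4.43), 4.99 to 6.45 at 31 days (median 5.41) and 3.69 to 6.62 at 43 days (median 6.0). The median of Adipoq was thus higher in the oldest dKO chow hearts than in the youngest, and that of Ces1d lower. In dKO hearts on probucol the medians were 4.44, 5.48 and 5.71, within 4.34 to 5.07, 4.79 to 6.62 and 5.17 to 6.90. The HET hearts on probucol read 5.08, 5.17 and 5.31 at 21 days, 5.46, 6.14 and 6.18 at 31 days, and 6.12 and 6.22 at 43 days. In the order of group means from 4.28 (dKO chow, 21 days) to 6.73 (HET chow, 43 days), no step between neighbours exceeded the larger SD of the pair.

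Adipoq rose from 21 to 31 days in HET hearts on chow, by 1.02 ± 0.29 (SE, n = 10 and 9, adjusted p = 0.0102, 15.8% of genes called higher), and 5 of 10 hearts were above the highest at 21 days. After centring the rise was 0.91 ± 0.28 (SE, adjusted p = 0.0281, 8.76% of genes called). In dKO hearts on chow it rose by 1.25 ± 0.29 (SE, n = 10 each, adjusted p = 1.88e-04, 62.5% of genes called higher), and after centring the difference was 0.60 ± 0.27 (SE, adjusted p = 0.0828). In dKO hearts on probucol all 6 hearts at 43 days were above all 6 at 21 days (1.32 ± 0.37, SE, adjusted p = 0.0194, 7.02% of genes called higher, and 1.0 ± 0.35 with an adjusted p of 0.105 after centring). The actin 3' to 5' ratio, a sign of RNA quality on these arrays, differed between the dKO chow groups, with a mean log2 value of -0.16 ± 0.11 at 21 days and 0.39 ± 0.35 at 31 days (SD, n = 10 each). With that ratio in the model all 3 rises still passed, at 0.91, 0.90 and 1.45.

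Between genotypes on chow Adipoq was at -0.83 ± 0.29 at 21 days (SE, n = 10 and 9, adjusted p = 0.118) and -0.60 ± 0.29 at 31 days (SE, n = 10 each, adjusted p = 0.118) in dKO relative to HET hearts. At 31 days it was lower in dKO hearts once arrays were centred (-0.92 ± 0.27, SE, adjusted p = 0.00678, 23.0% of genes called lower) or quantile normalized (-0.87 ± 0.28, SE, adjusted p = 0.0152). At 43 days, as a description, the difference was -0.98 ± 0.28 (SE, n = 12 and 9), against the -3.39 of Ces1d. After centring these were -1.32 ± 0.27 for Adipoq and -3.74 ± 0.36 for Ces1d (SE). In the 4 tested comparisons of probucol with chow the difference of Adipoq was -0.21 to 0.30, with adjusted p of 0.821 to 0.981, and -0.43 to 0.36 after centring, with adjusted p of 0.427 to 0.938. At 43 days dKO hearts on probucol and on chow differed by 0.14 ± 0.32 in Adipoq (SE, n = 6 and 12), or 0.53 ± 0.30 after centring, and by 3.45 in Ces1d, or 3.84 after centring. On probucol at 21 days all 6 dKO hearts read lower than the 3 HET hearts, with 1.92% of genes without overlap, and the difference did not pass (-0.61 ± 0.45, SE, adjusted p = 0.999).

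**Figure D2:**
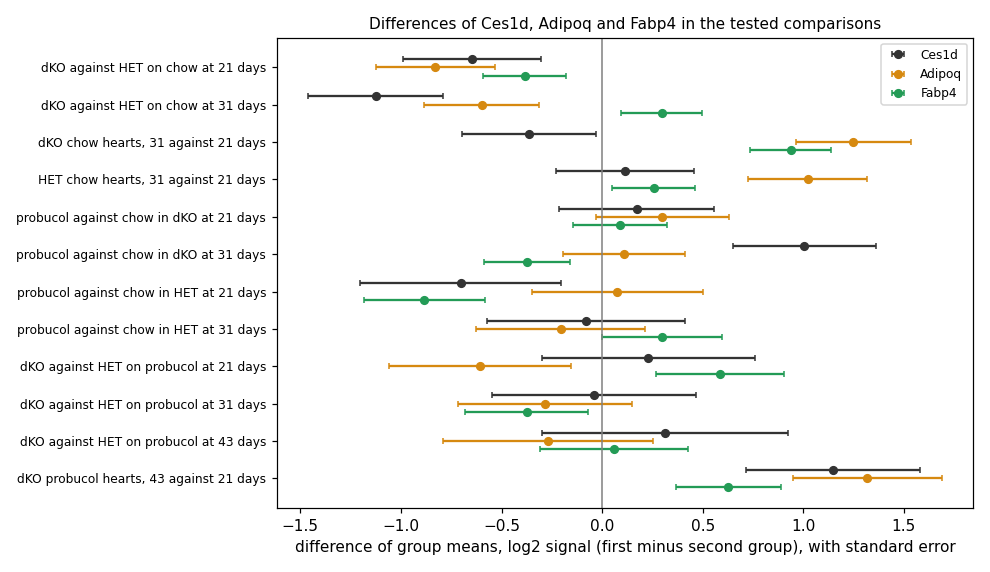
Difference of group means in log2 signal (horizontal axis, first minus second group) with its standard error for Ces1d, Adipoq and Fabp4 in the 12 tested comparisons (vertical axis). At 31 days on chow Ces1d is at -1.12 in dKO against HET hearts and Fabp4 at 0.30, and from 21 to 31 days in dKO hearts Adipoq is at 1.25 and Ces1d at -0.36. That difference of Fabp4 did not pass (adjusted p = 0.294) and was -0.02 after centring.

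Fabp4, the fatty acid-binding protein gene, was bright, with log2 signals of 5.27 to 8.23. Its lowest, median and highest dKO hearts on chow were at 5.27, 6.59 and 7.23 at 21 days, at 6.87, 7.46 and 7.79 at 31 days, and at 6.98, 7.58 and 8.03 at 43 days. From 21 to 31 days it rose by 0.94 ± 0.20 (SE, n = 10 each, adjusted p = 7.9e-05, 62.5% of genes called higher), with 6 of 10 hearts above the highest at 21 days. The median of all genes rose by 0.50 there, and after centring the difference of Fabp4 was 0.29 ± 0.16 (SE, adjusted p = 0.159). In HET hearts on chow the same difference was 0.26 ± 0.21 (SE, n = 10 and 9, adjusted p = 0.413), and the test of the difference between genotypes gave 0.68 ± 0.29 (SE, adjusted p = 0.0976). At the age at which Ces1d was lowest in dKO hearts, Fabp4 was at 7.51 ± 0.27 against 7.05 ± 0.80 in HET hearts at 43 days (SD, n = 12 and 9, described without a test), a difference of 0.45 ± 0.20 as deposited and 0.10 ± 0.16 after centring (SE).

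Lipe, the hormone-sensitive lipase gene, lay between 3.80 and 6.67 and Cidea between 6.05 and 7.89. The group means of Lipe ran from 4.90 to 6.14 and those of Cidea from 6.59 to 7.08, and neither gene passed the test in any of the 12 comparisons. At 43 days on chow, described without a test, Lipe was at -0.41 ± 0.26 and Cidea at -0.11 ± 0.14 in dKO relative to HET hearts (SE, n = 12 and 9), or at -0.75 ± 0.28 and -0.46 ± 0.14 after centring. The nearest was Lipe with probucol against chow in dKO hearts at 31 days (-0.66 ± 0.28, SE, adjusted p = 0.0675), which passed without the 6 arrays that stood apart (-0.86 ± 0.28, SE, adjusted p = 0.0178). Cidea did not differ detectably from 21 to 31 days in dKO hearts as deposited (0.01 ± 0.15, SE), but fell by 0.65 ± 0.15 after centring (SE, adjusted p = 2.97e-04, 31.9% of genes called) and by 0.51 ± 0.14 after quantile normalization (SE, adjusted p = 0.004, 1279 genes called).

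Retn, the resistin gene, was not at the floor on any array, but its mean log2 signal of 3.26 was at the 19.1st percentile of all probe sets. It lay between 2.16 and 5.56 in all hearts but 1, a dKO chow heart at 21 days with 5.85. The brighter probe set of Ucp1 was at the floor on 13 of 88 arrays and the other on 8, with means of 3.67 and 3.58. In a fit without the filter neither gene passed in any comparison, and the smallest adjusted p was 0.267. Near the floor a difference can come out smaller than it is.

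The promoters of Adipoq and Retn are shown because these hormone genes of fat cells varied together between hearts as deposited. Over all genes that relation did not pass after centring, as described below. That of Fbp2 is shown because it was, with Usp2, highest in r with Ces1d as deposited, though lowest of the 10 genes named below after centring. RefSeq windows of the 250 bases before the start of the transcript on build GRCm38.p6 were used, and 5 of the 8 members were in that table. Each is written 5′ to 3′ on the strand of its gene in lower case, with matches in capitals.

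Adipoq (chr16:23146286-23146535, plus strand): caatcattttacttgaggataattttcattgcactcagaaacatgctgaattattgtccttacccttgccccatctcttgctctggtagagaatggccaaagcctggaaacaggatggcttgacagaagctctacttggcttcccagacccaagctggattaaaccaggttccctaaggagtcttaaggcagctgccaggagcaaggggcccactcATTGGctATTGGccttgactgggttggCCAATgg

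Retn (chr8:3655520-3655769, plus strand): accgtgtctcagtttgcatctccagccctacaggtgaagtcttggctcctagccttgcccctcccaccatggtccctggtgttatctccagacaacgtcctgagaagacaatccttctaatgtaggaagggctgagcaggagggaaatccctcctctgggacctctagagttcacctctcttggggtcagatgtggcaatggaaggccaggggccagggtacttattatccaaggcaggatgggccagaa

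Fbp2 (chr13:62858401-62858650, minus strand): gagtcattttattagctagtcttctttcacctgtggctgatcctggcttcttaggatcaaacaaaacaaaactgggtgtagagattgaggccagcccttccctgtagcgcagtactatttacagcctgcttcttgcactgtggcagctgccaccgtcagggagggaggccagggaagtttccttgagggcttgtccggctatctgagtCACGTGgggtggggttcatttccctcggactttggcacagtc

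Both strands of these windows were searched for the CCAAT box, the TATA box written TATAAA, the E-box CACGTG, the C/EBP motif TTGCNNAA and the DR1 repeat of nuclear receptors. The Adipoq window held CCAAT 3 times, 30 to 34, 23 to 27 and 3 to 7 bases before the start, the first and the second of them read as ATTGG, on the opposite strand. Of all 32851 windows of this length, 33.8% held CCAAT. The Fbp2 window held CACGTG 37 to 42 bases before the start, a motif in 6.02% of windows, and that of Retn held none of these motifs. Among windows searched but not shown, one of Lipe also held CACGTG, 150 to 155 bases before the start. Those of Usp2 and Myh6 held none of the motifs.

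The question of whether Ces1d moved with fat-cell genes from heart to heart was asked within the groups, after each group's mean was subtracted, so that differences between groups did not enter. Ces1d and Adipoq had r = 0.06 over the 88 hearts (95% interval -0.17 to 0.28, rho = 0.03, permutation p = 0.696 and 0.774), and r = 0.15 without the 2 hearts farthest from the median of Ces1d. Median centring gave r = 0.13 (interval -0.10 to 0.34, permutation p = 0.364). In 9 groups of 6 or more hearts r ran from -0.21 to 0.69, above 0 in 7, with a median of 0.27. Of 5671 genes, 1054 had a higher r with Ces1d than Adipoq had.

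The other members were compared with Ces1d in the same way. With Fabp4 r was -0.01 (interval -0.23 to 0.21, rho = 0.04, permutation p = 0.911 and 0.712), with Retn -0.07 (-0.29 to 0.15, rho = -0.04, permutation p = 0.398 and 0.691) and with Cidea -0.10 (-0.31 to 0.13, rho = 0.0043, permutation p = 0.366 and 0.97). The 2 probe sets of Ucp1 had r = 0.07 and 0.01 (rho = 0.10 and -0.04, permutation p = 0.532 and 0.94 for r, 0.365 and 0.725 for rho). Lipe had r = 0.09 (-0.14 to 0.31, rho = 0.10, permutation p = 0.447 and 0.402), and after centring r = 0.23 (0.01 to 0.43, rho = 0.25, permutation p = 0.0285 and 0.0267), which did not pass over all genes (adjusted p = 0.161). Without the 2 farthest hearts these were -0.05 for Retn, 0.06 for Fabp4, -0.04 for Cidea and 0.08 for Lipe. In the model over all genes the adjusted p of Adipoq, Fabp4, Lipe and Cidea were 0.853 to 0.991. The upper ends of these intervals were at most 0.31 as deposited, so a weak relation cannot be told from none. The intervals treat all hearts as equally spread, while the SD of Ces1d ran from 0.11 to 1.77 over the groups. They may thus be too narrow, and they do not bound r within single groups.

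Of the 12 groups, the dKO chow hearts of 43 days, with an SD of 1.77 in Ces1d, weighed most in these values. In that group r with Adipoq was 0.0065. Without the chow hearts of 43 days Ces1d had r = 0.11 with Adipoq, 0.14 with Fabp4, -0.04 with Lipe and 0.09 with Cidea. The sign thus turned for Fabp4, Lipe and Cidea. In dKO chow hearts alone r with Adipoq was 8.2e-04, in HET hearts 0.23, and in probucol hearts 0.13, and on the other Ces1d probe set it was -0.02. Adipoq, Fabp4, Lipe and Cidea, the members run through the other settings, did not pass against Ces1d in any of them. With the array set as a block r with Adipoq was 0.06.

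The 10 genes with the highest r with Ces1d between hearts were Fbp2, the muscle fructose bisphosphatase (r = 0.53), Usp2, a ubiquitin protease of the daily clock (0.53), Myh6, the alpha myosin heavy chain of heart muscle (0.49), Cmbl, a hydrolase (0.47), Immp1l, a subunit of a mitochondrial peptidase (0.46), Art1, a muscle ADP-ribosyltransferase (0.46), Acaa2, the mitochondrial thiolase of fatty acid oxidation (0.46), Ube2b, a ubiquitin-conjugating enzyme (0.45), Etfb, a subunit of the electron transfer flavoprotein (0.44), and Ldhb, a lactate dehydrogenase (0.44). All 10 passed (adjusted p = 0.00142 to 0.0197), and after centring their r was 0.57 to 0.64. Measured against the other Ces1d probe set, Myh6 had r = 0.32 and did not pass (adjusted p = 0.0839). The 5 with the lowest r were Postn, the matrix protein periostin (-0.46), Eln, elastin (-0.44), Ccn1, a matrix-associated signalling protein (-0.44), Meox1, a homeobox factor (-0.44), and Icmt, a methyltransferase (-0.43). All 5 passed (adjusted p = 0.0197 to 0.0287), and after centring their r was -0.41 to -0.20, with Postn (-0.28, adjusted p = 0.0812) and Eln (-0.20, adjusted p = 0.242) no longer past the test.

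**Figure D3:**
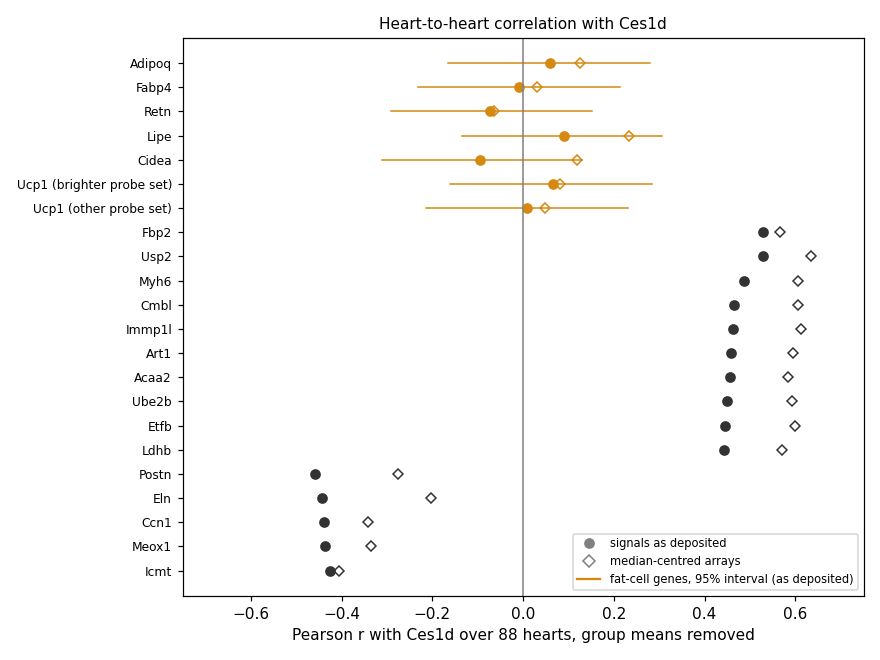
Pearson r with Ces1d over 88 hearts after removal of group means (horizontal axis) for the fat-cell genes (orange, with the 95% interval) and for the 10 genes highest and 5 lowest in r (black), as deposited (filled) and median-centred (open). The fat-cell genes lie between -0.10 and 0.09 as deposited, Fbp2 and Usp2 at 0.53.

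Of 5671 genes 31 passed with Ces1d, 20 rising and 11 falling with it (0.547% of genes), and after centring 683 passed, 660 of them rising (12.0%), 25 of them among the 31. Without the chow hearts of 43 days, whose Ces1d was most spread, 59 genes passed, 12 of them among the 31. Fbp2 (r = 0.57, adjusted p = 6.72e-04) and Usp2 (0.52, adjusted p = 0.0096) still passed there, and Myh6 did not (0.37, adjusted p = 0.142). In the smaller sets of hearts few genes passed: 1 gene, Fbp2, in chow hearts, and none in probucol, HET or dKO chow hearts alone, where r of Usp2 was 0.61, 0.42 and 0.58. Of 10 heart muscle markers 2 rose with Ces1d, Myh6 among them, and 7 did after centring, Tnni3, cardiac troponin I, among these (r = 0.32 with an adjusted p of 0.334 as deposited, and 0.50 with 5.25e-04 after centring). Of 10 fibroblast markers 2 fell as Ces1d rose, Postn and the collagen gene Col1a1 (-0.40, adjusted p = 0.0434), and after centring 2 of the list rose and none fell, with Col1a1 at -0.16 (adjusted p = 0.396).

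The longer lists of fat genes were read the same way. Of 34 white fat cell genes 26 had a probe set and 18 passed the filter, Pparg, the fat-cell receptor, Car3 and Cidec among those that did not. None of the 18 passed with Ces1d as deposited, and their median r was 0.0039 against -0.05 for all genes, while 6 rose with it after centring, with a median of 0.16 against 0.09 and 12.0% of all genes called. Of 7 brown fat cell genes none passed as deposited and 2 did after centring, Cox7a1, a cytochrome oxidase subunit (r = 0.47), and Fabp3, the fatty acid-binding protein of heart muscle (0.47), beside the same 12.0% of all genes. Both are also expressed in heart muscle. Of 12 triglyceride breakdown and storage genes none passed as deposited and 4 rose after centring, again beside 12.0% of all genes. Macrophage markers gave 0 of 15 in both.

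Between the groups themselves, the 12 group means of Ces1d were most like those of Coq9, for coenzyme Q synthesis (r = 0.98), Ndufb9, a complex I subunit (0.98), Fkbp4, an immunophilin (0.97), Mrps21, a mitochondrial ribosomal protein (0.97), Acyp2, the muscle acylphosphatase (0.97), Fbp2 (0.97), Etfdh, of the electron transfer chain (0.96), Ech1, of fatty acid oxidation (0.96), Ndufs3, of complex I (0.96), and Hadh, also of fatty acid oxidation (0.96). For the fat-cell members these values were 0.33 for Adipoq, -0.11 for Fabp4, -0.08 for Lipe and -0.06 for Cidea, and after centring 0.40, -0.07, 0.27 and 0.41, so that the sign turned for Lipe and Cidea. The groups share their arrays' scale and the dKO chow hearts of 43 days, for which Ces1d was chosen, so these values are a description of 12 means.

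Some fat-cell genes varied with each other between hearts as deposited. Of the 15 pairs of Adipoq, Fabp4, Retn, Lipe, Cidea and Ucp1 within groups, Adipoq had r = 0.41 with Fabp4 (rho = 0.40, permutation p = 3.5e-04 and 4.5e-04, and 0.35 without the 2 farthest hearts), which passed over all genes (adjusted p = 0.0402) but not after centring (r = 0.27, adjusted p = 0.747), without the 6 arrays that stood apart (0.32, adjusted p = 0.338) or without the chow hearts of 43 days (0.35, adjusted p = 0.48). With Retn, Adipoq had r = 0.41 (rho = 0.41, permutation p = 7e-05 and 1.5e-04, and 0.35 without the 2 farthest hearts), which passed in the fit without the filter (adjusted p = 0.0487) and not after centring (0.30, adjusted p = 0.78). Fabp4 had r = 0.42 with the brighter Ucp1 probe set, or 0.31 after centring, 0.36 with Retn, or 0.11, and 0.33 with Cidea, or 0.07. Lipe had r between -0.13 and 0.09 with Ces1d and the other members in these pairs.

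The genes closest to Adipoq were Scd1, the stearoyl-CoA desaturase of fatty acid synthesis (r = 0.63, adjusted p = 1.44e-06), and Apobec1, an RNA-editing enzyme (0.60, adjusted p = 1.95e-05), and both passed after centring too (0.59, adjusted p = 2.44e-05, and 0.54, adjusted p = 0.00156). In the fit without the filter the fat-cell carbonic anhydrase gene Car3 was next (0.56, adjusted p = 1.29e-04, and 0.58 after centring, adjusted p = 7.31e-05), and Cdo1, a cysteine dioxygenase, was also among the closest (0.49, adjusted p = 0.00709, and 0.46 after centring, adjusted p = 0.0401). With Ces1d these genes had r of -0.02, -0.05, 0.04 and 0.17, none past the test. As deposited 56 genes (0.987%) rose with Adipoq and none fell, and after centring 2 passed (0.0353%). The median signal of an array had r = 0.31 with Adipoq and -0.17 with Ces1d, and the actin 3' to 5' ratio 0.28 and 0.05, within groups. With the actin ratio in the model 5 genes passed with Adipoq, without the 6 arrays that stood apart 4 did, and without the chow hearts of 43 days 3 did. In chow hearts alone 388 genes passed with Adipoq, in dKO chow hearts alone 141, in HET hearts alone 1 and in probucol hearts alone 0.

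**Figure D4:**
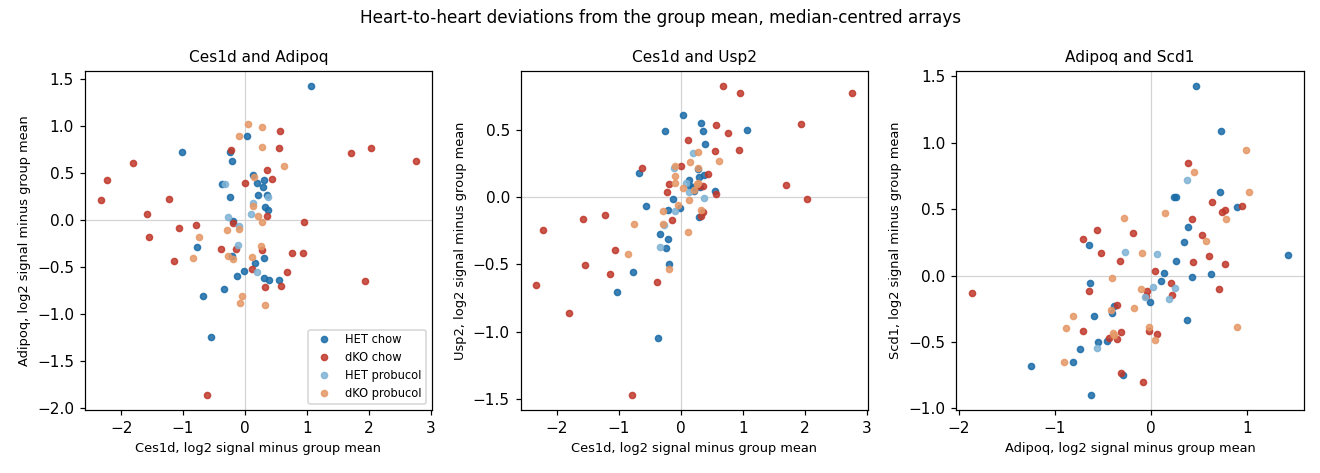
Each heart's deviation from its group mean, in log2 signal of median-centred arrays, for Ces1d and Adipoq (r = 0.13), Ces1d and Usp2 (r = 0.64), and Adipoq and Scd1 (r = 0.59), coloured by genotype and diet. The dKO chow hearts (red) that are farthest out on Ces1d lie both above and below 0 on Adipoq.

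The genes closest to Adipoq differed in their levels between groups. Scd1 was at 10.2 ± 0.33 in dKO chow hearts at 43 days and 8.56 ± 0.67 in HET hearts (SD, n = 12 and 9), opposite to Ces1d, and was higher in dKO hearts at 31 days by 0.87 ± 0.21 (SE, n = 10 each, adjusted p = 0.00128). Car3 read 3.83 ± 1.39 in dKO and 5.61 ± 0.77 in HET chow hearts at 31 days (SD, n = 10 each), and at 3.45 ± 1.11 and 6.42 ± 0.78 at 43 days (SD, n = 12 and 9), with 5.27 ± 0.97 in dKO hearts on probucol at 43 days (SD, n = 6). Cdo1 read 3.95 ± 1.45 in dKO chow, 5.64 ± 0.64 in HET chow and 4.91 ± 0.48 in dKO probucol hearts at 43 days (SD, n = 12, 9 and 6). The means of Car3 and Cdo1 at 43 days were thus lowest in dKO chow hearts, as that of Ces1d was. The mean of Adipoq was lowest there too, at 5.76, with 5.90 to 6.73 in the other groups of that age. Car3 and Cdo1 had not passed the filter, and 2 of the 12 dKO chow hearts at 43 days were at the floor for Cdo1. Scd1, Car3 and Cdo1 were chosen after their correlation with Adipoq had been seen. The summed signal of the 18 white fat cell genes overlapped between dKO and HET chow hearts at 43 days, at 6780 to 9570 and 7530 to 10300 units, while that of the 7 brown fat cell genes did not, at 3430 to 6250 and 9520 to 11600 units, with 8550 to 10900 in dKO hearts on probucol. Of all single genes 9.47% had no overlap between these chow groups. The 7 include Fabp3 and Cox7a1, also expressed in heart muscle, while Dio2, Elovl3, Lhx8, Zic1 and Slc27a2 of that list did not pass the filter. The sum of the 10 heart muscle markers did not overlap either, at 44000 to 49500 and 51600 to 59200 units. Their part in the level of Ces1d was not tested.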

How the data were processed

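Total RNA of whole hearts, taken up in Trizol and biotin-labelled per the labels' protocols, was hybridised to Affymetrix arrays, 1 mouse per array. The authors deposited linear intensities of 12488 probe sets for each of the 88 arrays. The submitters' processing notes name MAS5; no source used here tells how arrays were scaled. The count of arrays sets the precision. Groups follow genotype, diet and age in the labels; for dKO chow replicate 2 at 21 days another age stands in the description, and the title was followed. Genes were named through GEO's platform annotation, in which 10855 probe sets have 1 symbol.

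Intensities under the 10th percentile were raised to it, and log2 was taken with no scaling. Of the probe sets, those in the top 60% by mean and with 1 symbol were kept, the brightest per gene. Group means were fitted with limma 3.58.1 (R 4.3.3) with an intensity trend. Benjamini-Hochberg adjustment ran over all genes within a comparison, at 0.05. For relations between hearts, log2 Ces1d (or Adipoq) joined the model, Pearson's r and Spearman's rho of residuals were tested with 100000 two-sided permutations of hearts within groups, and intervals use Fisher's transformation. The scripts were tested on simulated data.

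The members, gene lists, comparisons and alternatives were chosen with earlier results of these data known. Named genes were the members, up to 4 genes of each pathway list by p, up to 3 of each marker list by signal, the 10 highest and 5 lowest in r with Ces1d, and the 10 most like it in group means; genes named for their relation to Adipoq, and list genes outside this rule, were chosen after their values were seen. Alternatives were scaling, floor, filter, the mean of probe sets, the other Ces1d probe set, replicate number, array set or actin ratio in the model, no trend, only the groups compared, and hearts left out. Those on the other probe set, the 6 arrays, HET or dKO chow hearts alone, the relations of Adipoq and the differences between effects were added after the data were seen.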

Additional observations from a re-analysis of the deposited data

Results flagged for a closer look

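In 56 checks of a measured member in a group of 4 to 10 hearts, 5 hearts stood apart from the rest of their group, and chance gives about 5% of such checks. Ces1d was at 6.24 in dKO probucol replicate 4 at 31 days, with the other 7 hearts at 6.88 to 7.39, and at 8.52 in HET chow replicate 2 at 43 days, with the other 8 at 7.10 to 7.81. Retn was at 5.85 in dKO chow replicate 3 at 21 days, where the others read 2.19 to 3.06. Cidea was at 6.05 in dKO chow replicate 1 at 31 days, below the 6.71 to 7.20 of the others. The brighter probe set of Ucp1 was at the floor of 2.08 in dKO chow replicate 10 at 31 days, where the others read 3.51 to 4.42.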

How the results depend on the processing

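The difference of Ces1d between dKO and HET hearts on chow at 31 days kept its direction and its call in all 15 alternatives, at -1.92 to -1.11. The gain with probucol in dKO hearts at 31 days was 0.96 to 1.33 and lost its call only without the 6 arrays that stood apart (0.98). From 21 to 31 days in dKO hearts the fall of Ces1d passed with median centring (-1.02), quantile normalization (-0.88) and the other probe set (-0.92). From 21 to 43 days in dKO hearts on probucol the rise passed in 3 of 15 alternatives: a floor at the 30th percentile (1.15), the mean of the probe sets (1.18) and only the groups compared (1.15). It did not pass as reported, and after centring it was 0.83 (adjusted p = 0.377).

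The 31 genes that varied with Ces1d became 57 with the higher floor, 153 with the mean of probe sets, 683 with centring, 688 with centring and the array set as a block, 208 with quantile normalization, 144 on the other probe set, 59 without the chow hearts of 43 days, 1 in chow hearts and 0 each in HET, dKO chow and probucol hearts; these last sets hold fewer hearts. Those of Adipoq went from 56 to between 0 and 388. Its r with Fabp4 turned to -0.10 in probucol hearts, and the change of Cidea in dKO hearts from 21 to 31 days turned to -0.65 with centring and -0.51 with quantile normalization. The counts of all genes called moved with scaling, most from 21 to 31 days in dKO hearts (3604, against 1812 with centring and 1279 with quantile normalization). Between dKO and HET hearts on chow at 31 days the count went from 1355 to 841 with the array set as a block. Without single HET probucol hearts, Ces1d with probucol in HET hearts stayed uncalled, as did the genotypes on probucol.

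Replicate numbers did not pair the hearts (correlations of -0.18 to 0.21 between hearts of the same number). With the replicate block, the difference of Ces1d at 31 days on chow was -1.12, Adipoq and Fabp4 no longer passed together (r = 0.39, adjusted p = 0.0817), 9 genes passed with Adipoq, and 67 rather than 33 genes were called with probucol in HET hearts at 31 days. No other call of a member changed with it. In groups of 2 and 3 hearts only large differences could pass.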
